A study of Homo sapiens with 13 samples.

Results

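The genes described here are the host genes of small nucleolar RNAs (snoRNAs) in the SNHG family, examined for peaks of PTBP1 and RUNX1 on chromatin. They were taken from the GENCODE version 44 annotation of the hg38 build as every gene whose symbol is SNHG followed by a number, together with GAS5, ZFAS1, TAF1D and EPB41L4A-AS1, which host snoRNAs under other names. This gave 32 genes of 62663 annotated on chromosomes 1 to 22, X and Y. Of these, 31 are annotated as long noncoding RNA (lncRNA) genes and TAF1D is protein-coding. The rule reads gene names only, but the members were chosen with earlier results of these data known.

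The peaks came from the human line MOLM-13, grown from an acute myeloid leukemia, for which the labels name no treatment. PTBP1 controls splicing through runs of pyrimidines in RNA, RUNX1 is a hematopoietic transcription factor, and the study asked where on chromatin they lie together, using CUT&Tag, in which an antibody directs a transposase to the bound protein so that sequencing adapters are inserted next to it. The series held 2 PTBP1, 2 RUNX1 and 1 IgG control library made by CUT&Tag, and 2 libraries each for PTBP1, RUNX1, H3K27me3 and IgG made by CUT&Run, in which a directed nuclease cuts instead, giving 13 in all. The values below rest on 1 deposited peak list per target, which leaves no replicate spread to set beside them, intervals cover counting error only, and measurements per library were not analysed here.

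snoRNAs are short nuclear RNAs that direct the chemical modification of ribosomal and spliceosomal RNA. Those with C and D boxes guide ribose methylation, those with H and ACA boxes guide pseudouridylation, and the related small Cajal body RNAs (scaRNAs) act on spliceosomal RNAs. Most human snoRNAs are cut out of introns, so they come from transcripts that start at the host gene's promoter. The spliced exons of many noncoding hosts carry no conserved product and are removed by nonsense-mediated decay. Amounts of snoRNA were not measured in the data used here. Many hosts belong, with the ribosomal protein genes, to the terminal oligopyrimidine class, whose transcripts begin with a C followed by an unbroken run of C and T bases in the gene sequence.

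That start signal was found in the sequence of 10 of the 32 genes, at the start of either the canonical transcript in GENCODE or the RefSeq transcript, as a C that opens an unbroken run of at least 5 pyrimidines. The 8 sequences below are shown because they place the transcription start of the genes whose peaks are described next. Each runs along the gene's own strand, from 40 bases before the start to 20 bases into the transcript, and capitals mark the pyrimidines from the start onward, which in SNHG29, SNHG12 and TAF1D follow a further C just before the start.
ZFAS1: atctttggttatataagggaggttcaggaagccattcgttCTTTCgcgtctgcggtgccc
GAS5: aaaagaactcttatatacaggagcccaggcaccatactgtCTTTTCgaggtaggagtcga
SNHG29: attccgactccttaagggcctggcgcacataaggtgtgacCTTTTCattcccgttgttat
SNHG5: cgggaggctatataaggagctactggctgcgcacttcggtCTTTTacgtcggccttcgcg
SNHG12: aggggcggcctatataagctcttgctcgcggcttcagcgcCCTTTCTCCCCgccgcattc
SNHG32: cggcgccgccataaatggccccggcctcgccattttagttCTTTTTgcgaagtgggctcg
SNHG19: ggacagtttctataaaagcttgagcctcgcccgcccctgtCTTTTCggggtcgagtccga
TAF1D: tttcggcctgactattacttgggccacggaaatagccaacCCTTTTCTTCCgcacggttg

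In hg38 these lie at chr20:49278602-49278661 on the plus strand (ZFAS1), chr1:173867970-173868029 on the minus strand (GAS5), chr17:16438997-16439056 on the plus strand (SNHG29) and chr6:85678714-85678773 on the minus strand (SNHG5). The others lie at chr1:28581854-28581913 on the minus strand (SNHG12), chr6:31834876-31834935 on the plus strand (SNHG32), chr16:2155339-2155398 on the minus strand (SNHG19) and chr11:93741476-93741535 on the minus strand (TAF1D). The starts of ZFAS1, GAS5, SNHG29 and TAF1D are those of the canonical transcript, and the starts of SNHG5, SNHG12, SNHG32 and SNHG19 come from RefSeq. SNHG4 and SNHG18 also began on such a run in RefSeq. Among the 28 host genes with a RefSeq promoter entry, 8 (28.6%, 95% Wilson interval 15.2 to 47.1) began exactly on a run, against 848 of 19147 genes in the same table (4.43%) and 35 of 219 other protein-coding genes with a snoRNA inside (16.0%). The measure is sensitive to where the start is put. When a run only had to lie within 10 bases of the upstream end of the gene in GENCODE, 8 of 32 host genes (25%, 13.2 to 42.1) had one, against 29.2% of all genes.

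A peak was counted at the transcription start site (TSS) when any of its bases came within 1 kb of the upstream end of the gene. Of the 32 host genes, 15 carried a PTBP1 peak there (46.9%, 95% Wilson interval 30.9 to 63.6), against a background of 12.1% of all genes, 26.4% of protein-coding genes and 9.5% of lncRNA genes. RUNX1 peaks lay at 10 of them (31.2%, 17.9 to 48.6), against 9.79% of all genes, 21.3% of protein-coding genes and 8.15% of lncRNA genes. Both were present at 8 host genes (25%, 13.2 to 42.1), where the background was 7.81% of all genes, 17.3% of protein-coding genes and 6.29% of lncRNA genes. The lower bounds of all 3 shares lay above the lncRNA and all-gene backgrounds, and only the bound for PTBP1 also lay above the protein-coding one. For RUNX1 and for both peaks together the interval took in the protein-coding share. Without the 12 genes that have a coding gene start in the window, the shares were 40% (21.9 to 61.3) for PTBP1, 20% (8.07 to 41.6) for RUNX1 and 15% (5.24 to 36.0) for both. Among these 20 genes only the PTBP1 bound still lay above the lncRNA and all-gene backgrounds, and it no longer lay above the protein-coding one. The members were chosen with earlier results of these data known, so none of these bounds is a test against a background.

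Hosting a snoRNA was not particular to the SNHG family, so the nearest classes were counted by the same rule. Of 274 other protein-coding genes with a snoRNA inside on the same strand, PTBP1 peaks lay at 104 (38.0%, 32.4 to 43.8) and RUNX1 peaks at 72 (26.3%, 21.4 to 31.8). Of 60 other lncRNA genes with a snoRNA inside, 11 (18.3%, 10.6 to 29.9) had a PTBP1 peak and 8 (13.3%, 6.91 to 24.2) a RUNX1 peak. The SNHG family and the coding hosts had overlapping intervals for both targets. For PTBP1 the family lay above the other noncoding hosts with intervals that just missed each other, at bounds of 30.9 and 29.9%. For RUNX1 those intervals overlapped. For the 20 family genes without a coding gene start in the window, the PTBP1 interval, 21.9 to 61.3%, also overlapped that of the other noncoding hosts. These are descriptions of 1 list per target, and no test was made.

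**Figure D1:**
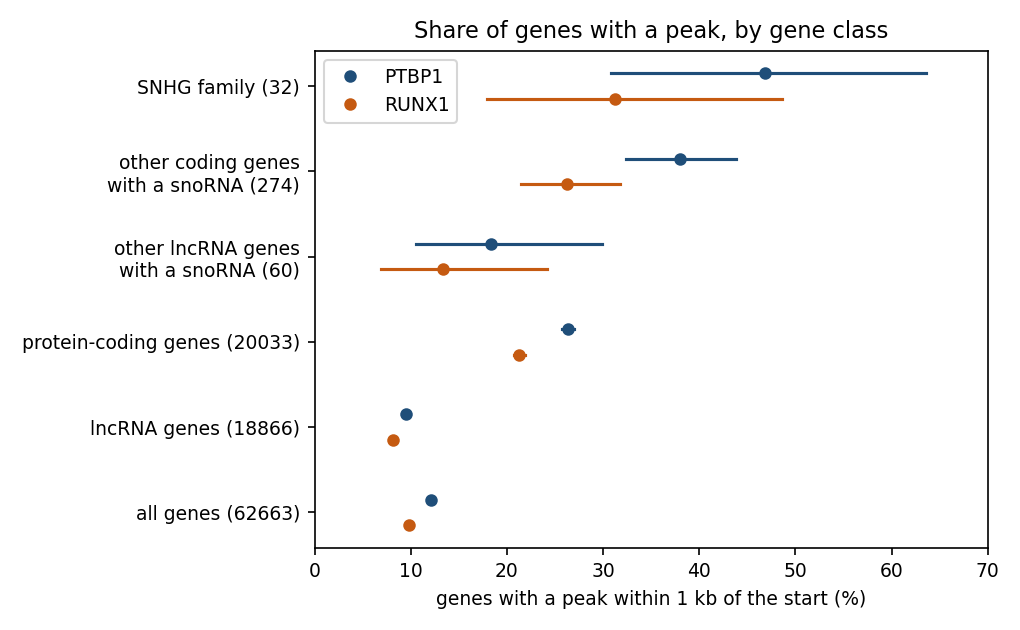
Share of genes (%) with a PTBP1 (blue) or RUNX1 (orange) peak within 1 kb of the TSS in 6 gene classes, with the number of genes in parentheses; points are shares and lines 95% Wilson intervals. The SNHG family stood at 46.9% for PTBP1 and 31.2% for RUNX1, close to other coding snoRNA hosts and above lncRNA genes as a whole.

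The 8 genes with both peaks were GAS5, ZFAS1, SNHG1, SNHG5, SNHG7, SNHG10, SNHG29 and SNHG31. A PTBP1 peak without a RUNX1 peak was found at 7 genes, namely SNHG9, SNHG12, SNHG15, SNHG16, SNHG19, SNHG25 and SNHG32. A RUNX1 peak without a PTBP1 peak was found at 2 genes, SNHG4 and SNHG11. The remaining 15 had neither, and these were SNHG3, SNHG6, SNHG8, SNHG14, SNHG17, SNHG18, SNHG20, SNHG21, SNHG22, SNHG26, SNHG27, SNHG28, SNHG30, EPB41L4A-AS1 and TAF1D. Across the whole annotation, 4892 genes carried both peaks, out of 7571 with PTBP1 and 6137 with RUNX1 in the window. Neither peak was listed for 46.88% of host genes (30.87 to 63.55), against 85.93% of all genes. The paper describes RUNX1 signal at almost every PTBP1 peak and the reverse. Absence here therefore means only that no peak was listed. At the edge of the window, the PTBP1 peak of SNHG12 came within 858 bases of the gene start and was counted, while a RUNX1 peak 1350 bases from the start of SNHG32 was not.

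By the kind of RNA they host, 12 genes carry C/D snoRNAs, 11 carry H/ACA snoRNAs, 4 carry both and 4 carry scaRNAs, while the single snoRNA entry inside SNHG28 has no box in its name. PTBP1 peaks lay at 7 of the 12 C/D hosts (58.3%, 31.95 to 80.7), 4 of the 11 H/ACA hosts (36.4%, 15.2 to 64.6), 3 of the 4 with both and 1 of the 4 scaRNA hosts. RUNX1 peaks lay at 4 C/D hosts, 4 H/ACA hosts, 1 gene with both kinds and 1 scaRNA host. The intervals of the kinds overlapped widely, and no difference between them was detectable with so few genes.

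The strength of a peak was given as fold enrichment, the number of fragments piled up at its summit over the local background, each with 1 added. In the PTBP1 list the background was 0.72 fragments at 95.1% of 9370 peaks and the median summit held 21 fragments. In the RUNX1 list the background was 0.33 fragments at 94.9% of 7688 peaks and the median summit held 20. Fold enrichment was therefore compared within a list only. Across lists, each peak was placed by its percentile among all peaks of its own list.

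Over the 15 host genes with a PTBP1 peak the median fold enrichment was 25.6 (95% interval of the median 12.8 to 36.0, range 11.6 to 58.7), against 15.1 over all 7571 genes with a PTBP1 peak at the TSS. The interval of the median reached below 15.1, so the difference was within the counting error of so few genes. Of the 15 peaks, 13 were at or above the median of the list and 6 were in its top 10%. RUNX1 peaks at the 10 host genes had a median of 22.6 (13.5 to 33.8, range 9.77 to 34.6) against 15.8 over 6137 genes, again with an interval that took in the latter, and with 8 above the median of the list and 0 in its top 10%. The medians over all genes, 15.1 and 15.8, also lay above those of the whole lists, 12.2 and 15.0. Most genes with a TSS peak thus passed the list median. No exact shares over all genes are set beside these counts.

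The C/D host ZFAS1 carried the strongest PTBP1 peak of the family. ZFAS1 lies at chr20:49278178-49299600 on the plus strand and holds SNORD12, SNORD12B and SNORD12C. Its PTBP1 peak had a fold enrichment of 58.7 from 100 fragments at the summit (95% exact Poisson interval 81.4 to 122), rank 277 in the list. Its RUNX1 peak had a fold enrichment of 33.8 from 44 fragments (31.97 to 59.1). The summits were 11 bases apart and lay 313 and 324 bases upstream of the start printed above. ZNFX1, which encodes a helicase-like zinc finger protein, starts on the opposite strand nearby, and the summits lay closer to it, at 97 and 108 bases.

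SNHG29 had the next highest PTBP1 value. It lies at chr17:16438767-16480249 on the plus strand, hosts SNORD49A, SNORD49B and SNORD65, and has no coding gene start in its window. The PTBP1 peak had a fold enrichment of 47.1 from 80 fragments (63.4 to 99.6) and the RUNX1 peak one of 25.6 from 33 fragments (22.7 to 46.3). The summits were 56 bases apart, 204 and 148 bases upstream of the printed start. SNHG29 therefore held both targets at a promoter with no annotated coding partner.

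SNHG7 and SNHG10 also have no coding gene start within 1 kb. SNHG7, a host of the H/ACA RNAs SNORA17A and SNORA17B, lies at chr9:136721366-136728184 on the minus strand. At its TSS the PTBP1 peak reached a fold enrichment of 38.4 from 65 fragments (50.2 to 82.9) and the RUNX1 peak 30.1 from 39 fragments (27.7 to 53.3). SNHG10, the host of SCARNA13 at chr14:95521943-95534889 on the minus strand, had both summits on the same base. Its fold enrichment was 36.0 for PTBP1, from 61 fragments (46.7 to 78.4), and 34.6 for RUNX1, from 45 fragments (32.8 to 60.2). The RUNX1 value was the highest in the family.

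The windows of 50 bases either side of the PTBP1 summit are printed for these 3 genes because they are the strongest summits without a coding partner, with each CG in capitals.
SNHG29: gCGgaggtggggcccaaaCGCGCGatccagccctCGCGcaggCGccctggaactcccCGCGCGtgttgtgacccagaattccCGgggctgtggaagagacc
SNHG7: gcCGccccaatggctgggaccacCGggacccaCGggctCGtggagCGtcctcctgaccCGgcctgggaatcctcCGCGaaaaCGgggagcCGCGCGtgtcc
SNHG10: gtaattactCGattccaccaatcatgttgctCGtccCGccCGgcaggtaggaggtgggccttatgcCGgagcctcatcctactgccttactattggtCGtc

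They lie at chr17:16438783-16438883 (plus strand), chr9:136728457-136728557 (minus strand) and chr14:95534841-95534941 (minus strand), and hold 11, 12 and 6 CG pairs. Over the 15 PTBP1 summits the median G and C content was 69.3% (range 50.5 to 78.2) and the median number of CG pairs 9, against 67.3% and 8 over 5305 PTBP1 peaks within 1 kb of any gene start. The base composition of host gene summits was thus close to that of other promoter summits in the list.

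GAS5, the growth arrest-specific transcript, holds the most snoRNAs of the family after SNHG14, with 11 listed by RefSeq, all C/D but SNORA103, at chr1:173858559-173868882 on the minus strand. Its PTBP1 peak had a fold enrichment of 34.3 from 58 fragments (44.04 to 74.98) and its RUNX1 peak one of 17.3 from 22 fragments (13.8 to 33.3). The summits were 82 bases apart and 307 and 225 bases upstream of the printed start. ZBTB37, a zinc finger gene on the opposite strand, started 214 and 132 bases from them. Neither peak covered the printed GAS5 start.

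SNHG5, the host of SNORD50A and SNORD50B at chr6:85650491-85678932 on the minus strand, had a PTBP1 fold enrichment of 27.9 from 47 fragments and a RUNX1 fold enrichment of 19.5 from 25 fragments. Its summits were 260 bases apart, the widest spacing of the 8 genes. SNHG31, the host of SNORA70I, lies on the plus strand at chr2:214810181-214963575, across from BARD1, which encodes a partner of BRCA1. Its PTBP1 peak had a fold enrichment of 34.9 from 59 fragments and its RUNX1 peak one of 18.0 from 23 fragments, with summits 96 bases apart and nearer to BARD1, at 186 and 90 bases.

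SNHG1 stood apart from the other genes with both peaks. It hosts the SNORD22 and SNORD25 to SNORD31 group at chr11:62851978-62855953 on the minus strand, and SLC3A2, the heavy chain of amino acid transporters, starts 51 bases upstream of it on the other strand. Its RUNX1 peak had a fold enrichment of 32.3 from 42 fragments (30.3 to 56.8), at percentile 86.4 of its list. Its PTBP1 peak had a fold enrichment of 13.4 from 22 fragments (13.8 to 33.3), at percentile 57.3. In the other 7 genes with both peaks the PTBP1 percentile was the higher of the pair. Over all genes with a TSS peak, the median fold enrichment was 15.1 for PTBP1, against 12.2 for the whole list. For RUNX1 it was 15.8, against 15.0, so peaks at gene starts in general stood higher in the PTBP1 list. No share over all genes with both peaks is set beside the order of the percentiles.

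Over the 8 genes with both peaks, every pair of peaks overlapped, and the summits had a median distance of 69 bases (range 0 to 260). The shared bases made up all of the shorter peak at 6 genes, 93.8% of it at SNHG29 and 60.1% at SNHG10. No overlap share or summit distance over the 4892 genes with both peaks is set beside these values. They are not read as a trait of the family. The median PTBP1 fold enrichment was 35.5 at these 8 genes and 12.8 at the 7 genes with a PTBP1 peak alone. The 2 sets overlapped, since SNHG1 at 13.4 lay below SNHG9 at 25.6, SNHG25 at 23.8 and SNHG32 at 14.0. The same split over all genes with a PTBP1 peak at the TSS is not set beside these medians, and the difference was not tested.

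**Figure D2:**
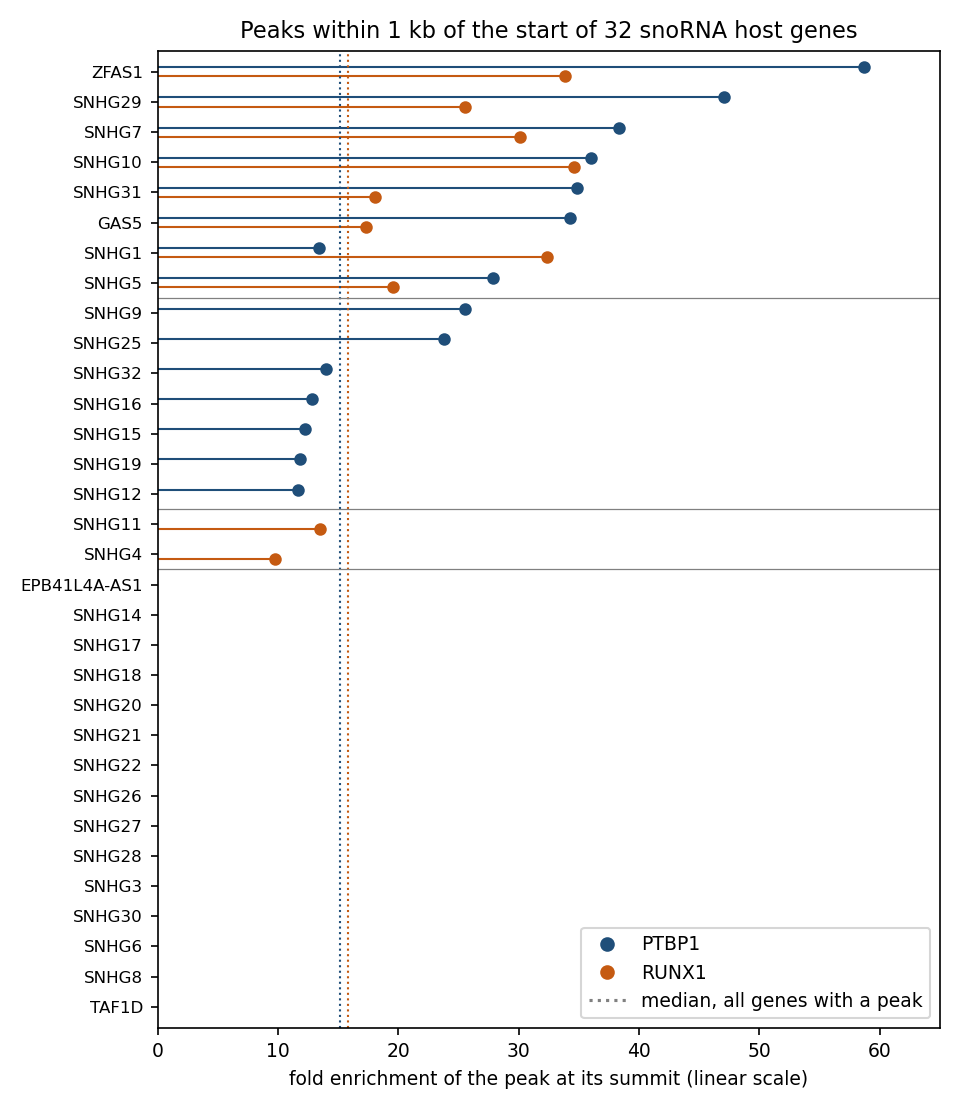
Fold enrichment at the summit (linear axis) of the strongest PTBP1 (blue) and RUNX1 (orange) peak within 1 kb of the TSS of each of the 32 host genes, grouped by grey lines into genes with both peaks, PTBP1 alone, RUNX1 alone and neither; dotted lines are the medians over all genes with such a peak, 15.1 and 15.8. ZFAS1 leads for PTBP1 at 58.7 and SNHG10 for RUNX1 at 34.6; the lists have different backgrounds, so the colours are not to be compared with each other.

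Among the genes with a PTBP1 peak alone, SNHG9 and SNHG25 were the strongest, at fold enrichments of 25.6 (43 fragments, 31.1 to 57.9) and 23.8 (40 fragments, 28.6 to 54.5). Both are shorter than the 1 kb window, at 615 and 540 bases, and the peak covered the whole gene with its snoRNAs. SNHG9 hosts SNORA78 next to RPS2, a ribosomal protein gene on the other strand, and SNHG25 hosts SNORD104 and SNORA50C. The lower values were 14.0 at SNHG32 (23 fragments), 12.8 at SNHG16 (21 fragments), 12.2 at SNHG15 (20 fragments) and 11.6 at SNHG12 (19 fragments). These 4 lay within each other's counting intervals.

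SNHG19 was the only host gene whose peak sat on a raised background. This host of SNORD60, at chr16:2154792-2155405 on the minus strand, had 81 fragments at its PTBP1 summit (64.3 to 101), about as many as SNHG29, over a background of 5.93 fragments, so its fold enrichment was 11.8. TRAF7, which encodes a ubiquitin ligase, starts on the other strand 153 bases from the summit.

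The 2 genes with a RUNX1 peak alone had low values. SNHG11 had a fold enrichment of 13.5 from 17 fragments (9.90 to 27.2) and SNHG4 one of 9.77 from 12 fragments (6.20 to 20.96). SNHG4 shares its promoter region with MATR3, which encodes a nuclear RNA-binding protein and starts 350 bases upstream on the same strand, and the RUNX1 summit was nearer to MATR3 (134 bases) than to the SNHG4 canonical start (245 bases). The nearest PTBP1 peaks lay 67412 bases from the start of SNHG4 and 141955 bases from that of SNHG11.

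Where the summits lay depended on the start they were measured to. Measured to the canonical transcript, the PTBP1 summit was upstream at 11 of 15 genes with a median of -140 bases (95% interval -307 to 37), and the RUNX1 summit at 9 of 10 with a median of -235 (-386 to -107). Over all genes with a peak at the TSS the medians were -138 and -124, with 70.1% and 68.2% of summits upstream. Measured to the upstream end of the gene instead, the medians were 37 bases downstream for PTBP1 (-132 to 168) and -39 for RUNX1 (-216 to 351), so the side of the PTBP1 median depended on which start was used. Among TSS peaks of genes that began on a pyrimidine run, the 7 PTBP1 summits lay 78 to 313 bases upstream of that start and the 5 RUNX1 summits 148 to 401 bases upstream. The peaks of TAF1D, which were not counted at its TSS, had summits 10 bases upstream and 211 bases downstream of it. Of the 10 genes with such a start, 8 had a peak of either target at the TSS, against 9 of the other 22. The start was the canonical or the RefSeq one, whichever began on a run. No share over all genes is set beside this split, and a link between such starts and peaks was not tested.

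**Figure D3:**
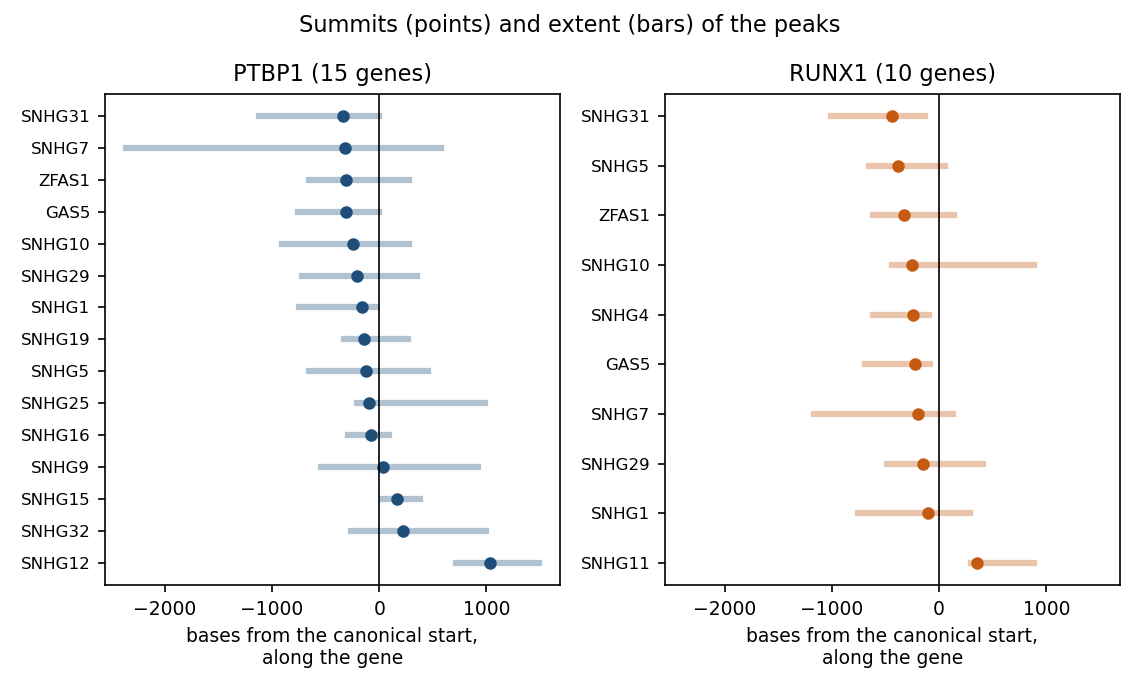
Position of each PTBP1 (left, 15 genes) and RUNX1 (right, 10 genes) peak relative to the start of the host's canonical transcript, in bases along the gene; points are summits and pale bars the extent of the peak. Most summits lie left of the start line, with SNHG12 the farthest downstream for PTBP1, at 1035 bases, and SNHG11 for RUNX1, at 351 bases.

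For 12 of the 32 genes a protein-coding gene starts within 1 kb of the TSS, so a peak there cannot be assigned to either gene from its position. A PTBP1 peak lay at 7 of these 12 (58.3%, 31.95 to 80.7) and at 8 of the 20 without a coding neighbour. A RUNX1 peak lay at 6 of the 12 (50%, 25.4 to 74.6) and at 4 of the 20. The intervals of the 2 sets overlapped for both targets. Where a peak was present, the PTBP1 summit was closer to the start of the coding neighbour than to the canonical start of the host at 4 of 7 genes and the RUNX1 summit at 5 of 6. The neighbour of SNHG5 is a coding gene known only by its identifier, ENSG00000271793, on the same strand. The neighbours of genes with neither peak were RCC1 at SNHG3, SEMA5A at SNHG18, MED17 at TAF1D and ACAA2 at SNHG22, 4 of the 12.

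Peaks in the gene body, beyond 1 kb of the TSS, were few. Among the 29 host genes longer than 1 kb, 2 had such a PTBP1 peak (6.90%, 1.91 to 21.96) against 7.29% of all genes of that length, and 2 had such a RUNX1 peak against 7.04%. The counts were at the background.

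SNHG7 held 3 of the 4 PTBP1 peaks in gene bodies. From the gene start they ran from 1028 to 2191 bases (fold enrichment 12.8, 21 fragments, 13.0 to 32.1), from 2564 to 2944 bases (8.14, 13 fragments, 6.92 to 22.2) and from 3651 to 7770 bases (16.3, 27 fragments, 17.8 to 39.3). The last of these reached past the end of the gene. With the TSS peak, which began 2366 bases upstream of the gene, PTBP1 peaks covered most of SNHG7, whereas its single RUNX1 peak stayed at the TSS. No other host gene had more than 1 PTBP1 peak.

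The first of the SNHG7 body peaks covered both of its snoRNAs, and its summit lay 43 bases inside SNORA17A. Peaks of the PTBP1 list also covered snoRNAs at 3 TSSs, those of SNHG9, SNHG25 and SNHG32, giving 4 of 19 PTBP1 peaks and 0 of 12 RUNX1 peaks in the family that held a snoRNA. These 3 genes had no RUNX1 peak at the TSS, and SNHG9 and SNHG25 are shorter than the window. No share over all peaks of a list is set beside these counts, and a difference between the targets was not tested. One RNA from each of SNHG7, SNHG9, SNHG25 and SNHG32 is shown because it lies whole under a peak, with the C box and the D box in capitals in the C/D RNAs and the ACA box in the H/ACA RNAs.
SNORA17A: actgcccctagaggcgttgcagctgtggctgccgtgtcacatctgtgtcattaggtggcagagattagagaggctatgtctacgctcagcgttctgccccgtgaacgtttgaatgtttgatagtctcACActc
SNORA78: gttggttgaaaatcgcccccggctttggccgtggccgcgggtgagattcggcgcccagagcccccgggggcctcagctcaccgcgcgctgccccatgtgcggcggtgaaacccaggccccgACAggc
SNORD104: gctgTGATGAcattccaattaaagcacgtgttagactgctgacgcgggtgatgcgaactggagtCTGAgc
SNORD48: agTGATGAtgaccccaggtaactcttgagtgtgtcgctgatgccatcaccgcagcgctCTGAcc

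They lie at chr9:136726747-136726879 (minus strand), chr16:1965184-1965310, chr17:64146083-64146152 and chr6:31835263-31835326 (plus strand). All bases of each lay under a PTBP1 peak. At the TSS peaks the summit was upstream of the snoRNA, by 252 bases at SNORA78, 238 at SNORD104 and 433 at SNORD48, so only in SNHG7 did a summit fall within a snoRNA.

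TAF1D, which encodes a subunit of the RNA polymerase I initiation factor and hosts 8 snoRNAs of both kinds, counted as a gene without a TSS peak because of its annotation. GENCODE extends it 42896 bases upstream of its canonical start, at chr11:93729948-93784391 on the minus strand. At the canonical start, on the pyrimidine run printed above, the PTBP1 list had a peak with a fold enrichment of 8.72 from 14 fragments (7.65 to 23.5), its summit 10 bases upstream. The RUNX1 list had one of 8.27 from 10 fragments (4.80 to 18.4), its summit 211 bases downstream. Both were weak for their lists, at percentiles 17.6 and 7.34, and did not overlap. C11orf54 starts on the opposite strand within the PTBP1 peak. Counted from canonical starts, the family had 16 genes with PTBP1, 11 with RUNX1 and 9 with both, TAF1D being the gene added to each.

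The remaining gene-body peak was a RUNX1 peak in SNHG29, 3437 to 3744 bases from the gene start, in intron 4 and past its last snoRNA, with a fold enrichment of 12.0 from 15 fragments (8.40 to 24.7). No PTBP1 peak overlapped it.

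**Figure D4:**
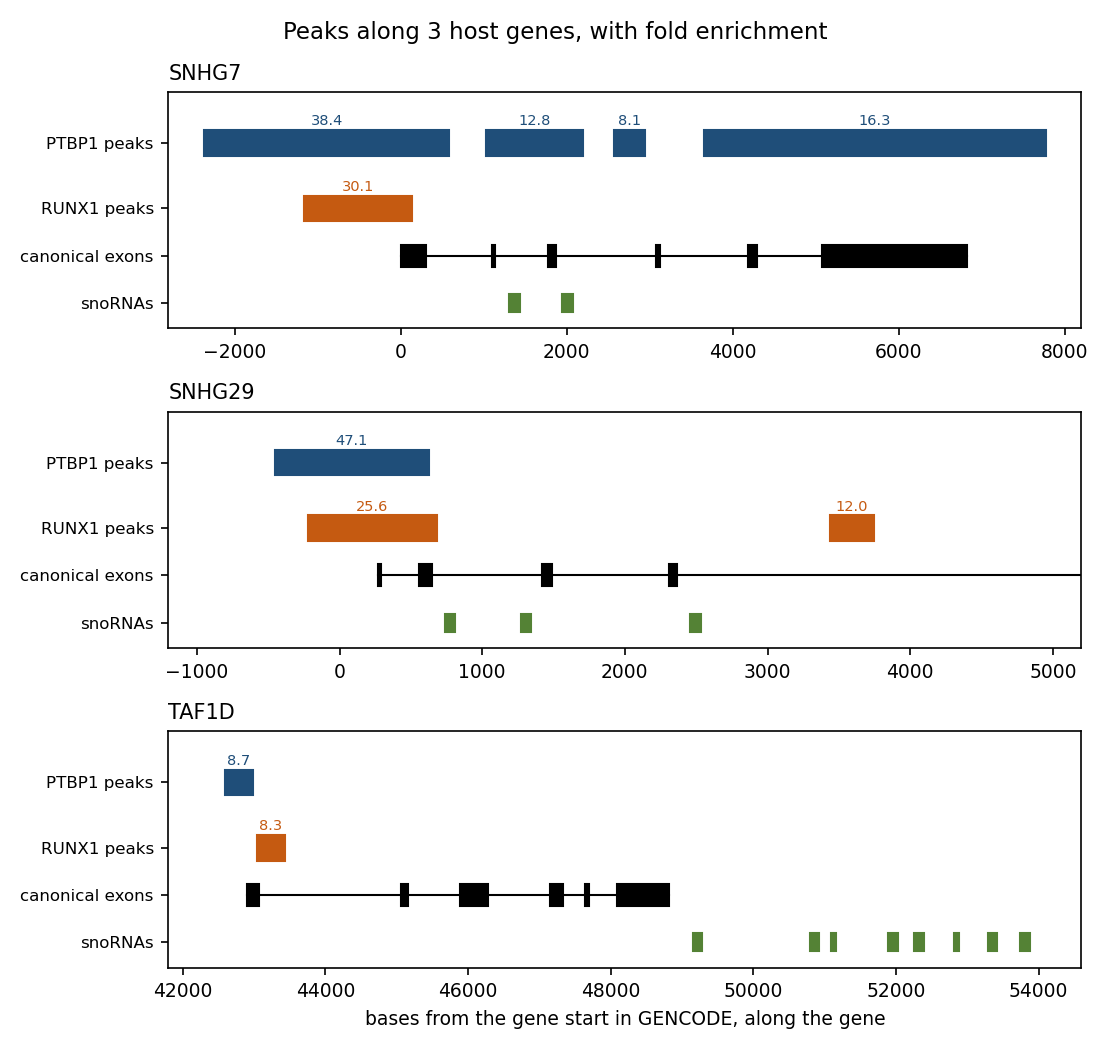
PTBP1 (blue) and RUNX1 (orange) peaks with their fold enrichment along SNHG7, SNHG29 and TAF1D, the 3 host genes with gene-body peaks, against the exons of the canonical transcript (black) and the snoRNAs (green), in bases from the gene start. In SNHG7 the 4 PTBP1 peaks run across the gene while RUNX1 stays at the start, and in TAF1D both peaks sit at the canonical start near 42896 bases.

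Of the 15 genes with neither peak at the TSS, 11 had no peak of either list within 50 kb of the TSS. No share over all genes without a TSS peak is set beside this count, so it is not read as a trait of the family. The closest PTBP1 peak was 19267 bases from SNHG30 and the closest RUNX1 peak 11235 bases from SNHG17. SNHG14, the long imprinted transcript of the Prader-Willi region that holds 84 snoRNAs over 441754 bases, had its nearest PTBP1 peak at 1938535 bases and its nearest RUNX1 peak at 61547 bases from the TSS. SNHG3, the host of SNORA73A and SNORA73B, had none within 75514 bases for PTBP1 and 142582 bases for RUNX1. Whether these genes were transcribed in the cells was not measured in the data used here.

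The starts of SNHG8 (host of SNORA24) and EPB41L4A-AS1 (host of SNORA13) are shown as examples of hosts with neither peak, as the 40 bases before and 20 bases after the canonical start, with no pyrimidine run from that base, although another annotated start of each gene has one.
SNHG8: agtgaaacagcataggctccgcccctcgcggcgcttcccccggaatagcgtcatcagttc
EPB41L4A-AS1: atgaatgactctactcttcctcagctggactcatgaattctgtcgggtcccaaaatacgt

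They lie on the plus strand at chr4:118278668-118278727 and chr5:112160486-112160545. The nearest PTBP1 peaks were 313037 bases from SNHG8 and 647718 bases from EPB41L4A-AS1.

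The DNA sequence that RUNX1 recognises was present at few host gene summits. The letters TGTGGT or TGCGGT, on either strand, occurred within 50 bases of the RUNX1 summit at 1 of 10 host genes (10%, 1.79 to 40.4), SNHG1, against 24.2% of all RUNX1 peaks and 14.3% of those within 1 kb of a gene start. At PTBP1 summits they occurred at 2 of 15 (13.3%, 3.74 to 37.9), SNHG1 and SNHG5, against 8.79% of all PTBP1 peaks and 7.20% of those at a gene start. With these numbers the host genes could not be told from other promoter peaks. The match at SNHG5, in capitals, lies 36 bases downstream of the PTBP1 summit and is printed because it is the only one of the form TGTGGT, here read on the other strand.
SNHG5: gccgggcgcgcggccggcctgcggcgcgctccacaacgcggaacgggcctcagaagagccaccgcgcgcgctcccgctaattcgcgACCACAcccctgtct

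This window is chr6:85678824-85678924 on the minus strand.

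The protein partners of these RNAs were counted by the same rule. Of the 8 core proteins of snoRNA particles, 3 had a PTBP1 peak at the TSS (37.5%, 13.7 to 69.4) and 1 a RUNX1 peak (12.5%, 2.24 to 47.1), intervals that took in the 26.4% and 21.3% of protein-coding genes. Those with a PTBP1 peak were NHP2 (fold enrichment 28.5) and DKC1 (21.5) of the H/ACA particle and NOP58 (8.14) of the C/D particle. DKC1, the pseudouridine synthase, was the only one with a RUNX1 peak as well (19.5), and FBL, the methyltransferase, NOP56, SNU13, NOP10 and GAR1 had neither. Of 10 assembly factors, 4 had a PTBP1 peak, led by RUVBL2 (52.9) and PIH1D1 (43.0), and 4 a RUNX1 peak. Each share was 40% (16.8 to 68.7), which also took in the protein-coding background. NAF1, NUFIP1, SHQ1 and ZNHIT6 had neither.

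Among 10 factors of nonsense-mediated decay, which degrades many spliced host transcripts, 6 had a PTBP1 peak and 5 a RUNX1 peak. UPF2 (43.0) and SMG9 (19.2) were the strongest for PTBP1, and UPF1, UPF3A and UPF3B had neither. The intervals, 31.3 to 83.2% for PTBP1 and 23.7 to 76.3% for RUNX1, took in the shares of the host genes. They lay above the 26.4% and 21.3% of all protein-coding genes. This list was chosen with earlier results of these data known, so the bounds are no test against that background.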

How the data were processed

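CUT&Tag reads were, per the study's methods, aligned by the authors to hg38 with Bowtie2, filtered for mapping quality, freed of duplicates and passed to MACS3. Whether replicates were pooled and which control was used are not given in the sources used here. The 2 deposited peak lists name a target but no assay or replicate and were taken as the CUT&Tag lists. The deposited fold enrichment is a ratio of summit pileup to background, each with 1 added. The deposited −log10 p-value is that of the pileup under a Poisson model, and the deposited −log10 q-value is adjusted genome-wide. The deposited score holds the same q-value on a scale multiplied by 10, without decimals. Solving the fold and the −log10 p-value together gave whole fragments and a background, with a largest difference of 0.00134 from the deposited value. Library depths were not used here, so depth enters through these pileups only.

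Genes, starts and snoRNAs came from GENCODE version 44, with RefSeq (GRCh38.p14) for further starts and snoRNAs. RefSeq starts were matched for 28 host genes. GENCODE lists no snoRNA inside GAS5. Coordinates are 1-based. Gene start means the upstream end of the gene. Shares have 95% Wilson intervals, medians binomial order-statistic intervals and fragments exact Poisson intervals. No test was made, since each target has 1 list. All members are named, those with a peak with its values, as are coding neighbours within 1 kb and, in the protein lists, genes with neither peak or the 2 strongest by PTBP1. The members and lists were chosen with earlier results of these data known. The recovery of fragments and background, the window search for peaks and the search for pyrimidine runs were tested on simulated data. The confidence intervals were not. Python 3.11.15, numpy 2.4.6, pandas 2.3.3, scipy 1.17.1, pysam 0.24.0 and matplotlib 3.10.9 were used.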

Additional observations from a re-analysis of the deposited data

How the results depend on the processing

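No paired analysis was possible because the peak lists carry no replicate numbers and no test was made. Of the 60 alternative values, 46 stayed within the interval of the reported value and, for shares, within 1.5 times of it. Some of these 46 could not have moved. Every host gene with a TSS peak had 1 per list, so choosing the nearest summit changed nothing. All 32 genes hold a snoRNA in GENCODE or RefSeq, and the shared minimum of 11 fragments is the lowest in the PTBP1 list. Requiring the start itself to lie in the peak lowered the RUNX1 share from 31.2% to 18.75%. Leaving out genes that share the window with a coding gene start lowered it to 20% and the share with both peaks from 25% to 15.0%. Gene-body shares of 6.90% fell to 3.45% for PTBP1 and 0% for RUNX1 when peaks within 1 kb of any annotated gene start were left out, the starts of snoRNAs included. Measured from the canonical start instead of the gene start, the median summit position moved from 37 to -140 bases for PTBP1 and from -39 to -235 bases for RUNX1. The motif share changed from 13.3% to 6.67% at PTBP1 summits with TGTGGT alone, and from 10% to 0% with TGTGGT alone or 20% within 100 bases at RUNX1 summits. The share of host genes with a pyrimidine run, 25%, was 12.5% for runs of at least 7 (all genes 11.02%, other coding hosts 21.53%). It was 40.6% near the canonical start (all genes 29.41%, other coding hosts 43.8%). Of 2 further alternatives chosen after seeing the data, a run exactly at any annotated transcript start gave 59.4% (all genes 7.49%, other coding hosts 29.9%). A run exactly at the canonical start gave 15.6% (all genes 2.75%, other coding hosts 16.8%). Host genes have a median of 9.5 annotated start positions against 1 over all genes, so a run at any annotated start has more chances in them. The share of host genes with a RefSeq start on a run was also chosen after seeing the data. Summits of 10 to 20 fragments, as at TAF1D, SNHG4 and SNHG12, lie near the lowest in the lists (11 for PTBP1, 8 for RUNX1), and a site just under the authors' threshold would be counted as having no peak.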
